A study of Mus musculus with 3 samples.

Results

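The genes described here are 7 members of the CSF1 and CCL2 axes, which draw myeloid cells into tissues and keep them alive there. They are the ligands Csf1, Il34 and Csf2, the receptor Csf1r, the chemokines Ccl2 and Ccl7 and their receptor Ccr2. They were taken by symbol from the 32285 genes of the deposited matrices, and all 7 were found. Levels were read from single-cell RNA-Seq of subcutaneous B16-F10 tumors, which grow from a melanoma cell line of C57BL/6 mice. Of 3 libraries, 2 were labelled shMib2 (replicates 1 and 2, each made with a different shRNA against Mib2) and 1 was labelled shCtrl (a control shRNA). The mice were C57BL/6J and 6 to 8 weeks old, and each library pooled the tumors of 3 mice, which were dissociated and cleared of red blood cells by lysis. The host mice carried no knockdown, so the label describes the injected melanoma cells and not the fibroblasts or leukocytes. With 3 mice pooled in each library and 1 library labelled shCtrl, no spread between control animals could be measured.

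CSF1 and IL-34 are both ligands of CSF1R, the receptor tyrosine kinase on which most macrophages and many monocytes depend. GM-CSF, the product of Csf2, acts on granulocytes, macrophages and dendritic cells through a receptor of its own. CCL2 and CCL7 are ligands of CCR2, which marks classical monocytes and guides them out of the bone marrow and into inflamed tissue. Fibroblasts, endothelial cells and macrophages are known sources of these chemokines.

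Cells were assigned to classes by markers that included none of the 7 genes. In the order shMib2 replicate 1, shMib2 replicate 2 and shCtrl, 6797, 4450 and 8378 barcodes passed the melanoma gate, 284, 278 and 16 the fibroblast gate, 142, 260 and 19 the myeloid gate, 837, 1350 and 145 the lymphoid gate and 7, 21 and 1 the vascular gate. Each class expressed its defining markers. The 7 fibroblast markers summed to 27384 and 27209 CPM in fibroblasts labelled shMib2, against 13724 CPM in the 16 labelled shCtrl, where CPM is the usual scaling of UMI counts by the total of the class. The markers of mural cells, which surround vessels, summed to 37.0 and 45.6 CPM in the fibroblasts labelled shMib2, and to 210.8 CPM in those labelled shCtrl. Of the myeloid cells, 10 of 142 and 19 of 260 were plasmacytoid dendritic-like in the libraries labelled shMib2, against 8 of 19 in the library labelled shCtrl. Mib2 itself was not lower in melanoma cells labelled shMib2, at 3.11 and 2.67 CPM, against 2.51 CPM in those labelled shCtrl, so the knockdown is not visible in these counts and the libraries are named by their labels. The log2 fold change was 0.16 ± 0.12 (SE), with an adjusted p of 0.56 (edgeR). Between 20 and 30 barcodes were shared by any pair of libraries.

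The reference sequence upstream of Csf1 is shown because the level of this ligand set fibroblasts apart from the other gates in every library. It is RefSeq's on GRCm38.p6, 250 bases on the minus strand at chr3:107760470-107760719, read 5′ to 3′ up to the base before the start site of the gene at chr3:107741048-107760469. Capitals mark matches to the NF-kB consensus (the longer run) or the GC box GGGCGG (the shorter runs) on either strand.
Csf1: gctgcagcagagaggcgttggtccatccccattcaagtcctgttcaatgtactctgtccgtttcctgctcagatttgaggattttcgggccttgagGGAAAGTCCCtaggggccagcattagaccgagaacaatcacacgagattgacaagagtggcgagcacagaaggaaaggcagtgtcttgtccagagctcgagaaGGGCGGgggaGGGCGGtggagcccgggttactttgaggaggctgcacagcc
The window was 56.4% G or C. It held 1 NF-kB match, on the strand opposite to the one printed, which began 154 bases before the start site, and 2 GC boxes that began 51 and 41 bases before it. It did not hold the letters of TGANTCA (AP-1), GAGGAAG (PU.1), TATAAA or CCAAT on either strand. Over all 32851 RefSeq promoter windows, which run 50 bases past the start site, the NF-kB consensus was present in 1.2%, the GC box in 35.7%, the AP-1 letters in 7.81%, the PU.1 letters in 13.6%, TATAAA in 13.6% and CCAAT in 37.4%. These matches describe the letters only. Ccl2 and Ccl7 lie next to each other on the plus strand, at chr11:82035571-82037453 and chr11:82045712-82047525. Csf2 lies at chr11:54247271-54249667 on the minus strand, Il34 at chr8:110741829-110805924 on the minus strand and Ccr2 at chr9:124101950-124113557 on the plus strand, all per GENCODE vM21 on GRCm38.

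Relative to all UMIs of a class, the ligands and chemokines were highest in fibroblasts and the receptors in leukocytes, except that Il34 had 13.98 CPM (2 UMIs) in vascular cells of shMib2 replicate 2. Against the other gates, with libraries as replicates, 6 of the 7 genes were called higher in fibroblasts (edgeR's quasi-likelihood test, adjusted p under 0.05), where 25.8% of 13132 genes tested were. Il34 and Csf2 are among the 6, had few UMIs in other gates and passed the filter on low counts chiefly through fibroblasts. In myeloid cells 4 of 7 were called higher (background 18.8%), in lymphoid cells 1 of 7 (background 25.2%) and in melanoma cells 0 of 7 (background 32.2%). The vascular gate had at least 10 cells in 1 library alone, in which 4 of the 7 genes had no UMI, so fitted fold changes against the mean of the other gates are not given and levels are compared directly.

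**Figure D1:**
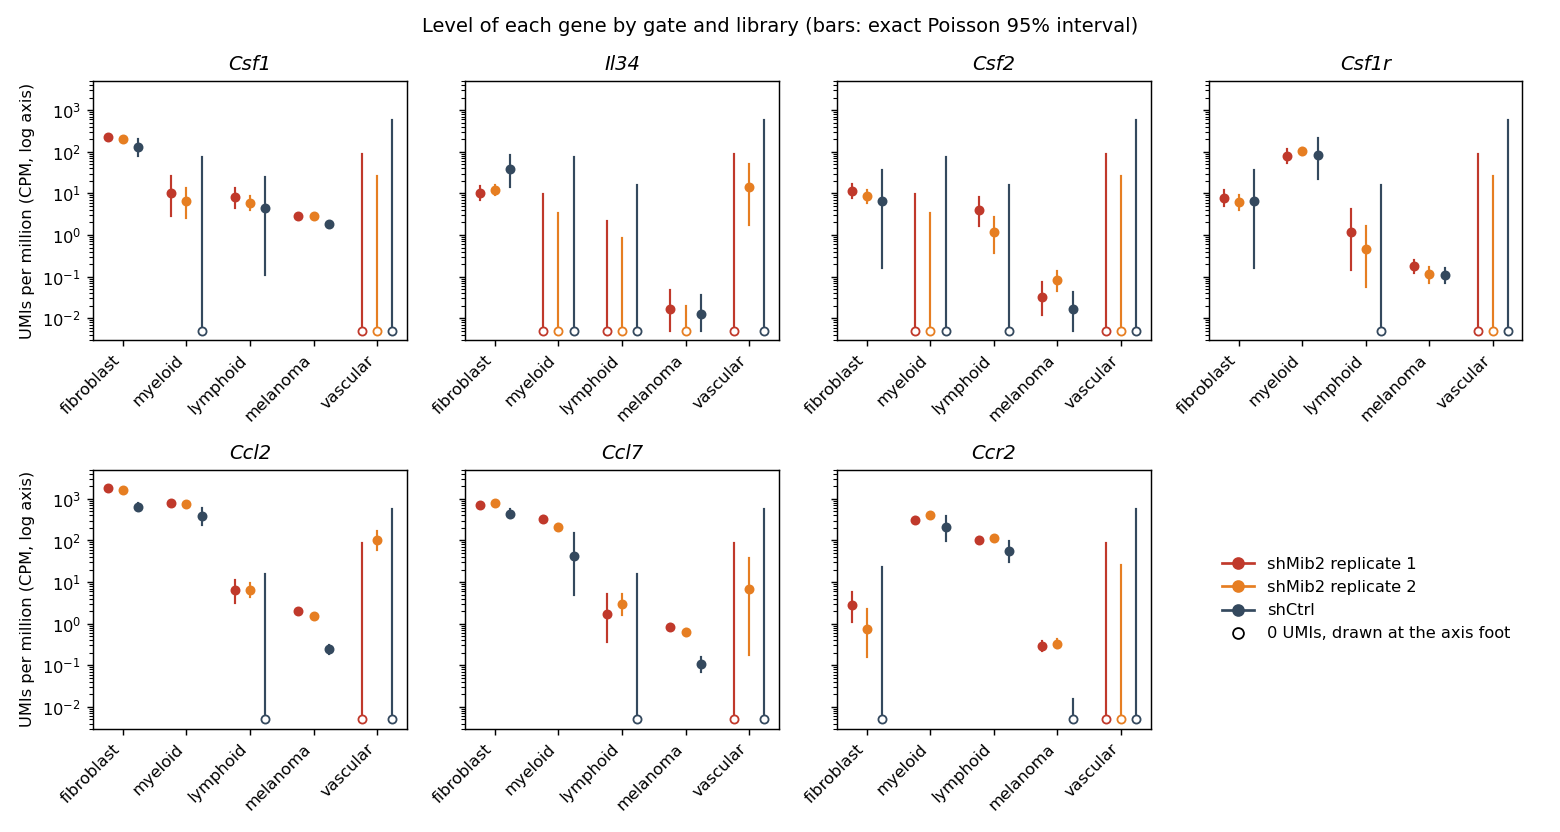
CPM of each gene (UMI counts scaled by the total of the class, log axis) in 5 gates, with shMib2 replicate 1, shMib2 replicate 2 and shCtrl side by side and exact Poisson 95% intervals that cover counting error only. Csf1, Ccl2 and Ccl7 were highest in fibroblasts of every library, and Csf1r and Ccr2 in myeloid cells. Open circles mark 0 UMIs.

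Csf1, the main ligand of the receptor, had 221.9 CPM (558 UMIs) and 204.6 CPM (808 UMIs) in fibroblasts labelled shMib2, against 127.7 CPM (20 UMIs) in those labelled shCtrl. It was called higher in fibroblasts than in the other gates, with an adjusted p of 2.2e-21 (edgeR). Myeloid cells had 10.4 and 6.43 CPM in the libraries labelled shMib2 and 0 UMIs in the library labelled shCtrl, and lymphoid cells had 8.15, 6.03 and 4.34 CPM in the order shMib2 replicate 1, shMib2 replicate 2 and shCtrl. The myeloid and lymphoid intervals overlapped in each library. Melanoma cells had 2.86 and 2.83 CPM in the libraries labelled shMib2 and 1.82 CPM in the library labelled shCtrl. Melanoma cells, the most numerous class, held 40.1% and 34.1% of all Csf1 UMIs in the libraries labelled shMib2, and 91.8% in the library labelled shCtrl.

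The number of Csf1 UMIs per Ccl2 UMI was 0.123 and 0.122 in fibroblasts labelled shMib2 and 0.196 in those labelled shCtrl. In melanoma cells it was 1.46, 1.84 and 7.42 in the order shMib2 replicate 1, shMib2 replicate 2 and shCtrl. The part of RNA from other cells in the Csf1 of melanoma cells was not tested.

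Il34, the other CSF1R ligand, had few UMIs, and fibroblasts held most of them. Its level was 10.3 CPM (26 UMIs in 16 of 284 cells) and 12.2 CPM (48 UMIs in 20 of 278 cells) in fibroblasts labelled shMib2, against 38.3 CPM (6 UMIs in 5 of 16 cells) in those labelled shCtrl. Myeloid and lymphoid cells had 0 UMIs in all 3 libraries, 1 vascular cell of shMib2 replicate 2 had 2 UMIs, and melanoma cells had 3, 0 and 3 in the order shMib2 replicate 1, shMib2 replicate 2 and shCtrl. It was called higher in fibroblasts, with an adjusted p of 2.3e-08 (edgeR). It passed the filter on low counts chiefly through the fibroblast sums, so the call adds little to these counts.

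Csf2 was rare and clumped in a few barcodes. Fibroblasts labelled shMib2 had 29 UMIs in 7 cells (11.5 CPM) and 34 UMIs in 9 cells (8.61 CPM), of which 12 and 17 UMIs stood in 1 cell, and those labelled shCtrl had 1 UMI. It was called higher in fibroblasts, with an adjusted p of 3.7e-06 (edgeR), though at most 3.24% of fibroblasts labelled shMib2 had a UMI. It passed the filter on low counts through the fibroblast sums, so the call adds little to these counts. Lymphoid cells had 7 and 5 UMIs in the libraries labelled shMib2 and 0 UMIs in the library labelled shCtrl. Myeloid cells had 0 UMIs in all 3 libraries.

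Ccl2, the principal CCR2 ligand, had 1808 CPM (4546 UMIs) and 1674 CPM (6609 UMIs) in fibroblasts labelled shMib2, against 651.4 CPM (102 UMIs) in those labelled shCtrl. Myeloid cells followed, with 809.3 CPM (312 UMIs) and 734.4 CPM (800 UMIs) in the libraries labelled shMib2 and 392.2 CPM (19 UMIs) in the library labelled shCtrl. The intervals of fibroblasts and myeloid cells, which cover counting error only, were apart in both libraries labelled shMib2 and overlapped in the library labelled shCtrl. Lymphoid cells had 6.41 and 6.49 CPM in the libraries labelled shMib2 and 0 UMIs in the library labelled shCtrl. In the vascular gate, 4 of 21 cells of shMib2 replicate 2 held 15 UMIs (104.8 CPM) and the 7 cells of replicate 1 held none. Ccl2 was called higher in fibroblasts (adjusted p of 6.0e-20) and in myeloid cells (3.5e-17), and lower in melanoma cells (1.2e-15) and lymphoid cells (2.0e-11), all by edgeR.

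Ccl7, a second CCR2 ligand encoded beside Ccl2, followed the same order. It had 713.5 and 800.8 CPM in fibroblasts labelled shMib2, against 440.7 CPM in those labelled shCtrl. Myeloid cells had 332.0 and 214.8 CPM in the libraries labelled shMib2, against 41.3 CPM in the library labelled shCtrl, which was 2 UMIs. It was called higher in fibroblasts (adjusted p of 8.5e-19) and in myeloid cells (1.1e-13) by edgeR. The number of Ccl7 UMIs per Ccl2 UMI was 0.395, 0.478 and 0.676 in fibroblasts, 0.410, 0.293 and 0.105 in myeloid cells and 0.432, 0.404 and 0.441 in melanoma cells, in the order shMib2 replicate 1, shMib2 replicate 2 and shCtrl.

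Both chemokines were often found in the same cells. Of the fibroblasts labelled shMib2 with a Ccl7 UMI, 90.5% and 85.1% also had a Ccl2 UMI, against 44.0% and 30.3% of those without one, and in the library labelled shCtrl 6 of 16 cells had both and 1 had Ccl7 alone. In myeloid cells labelled shMib2, 17 of 20 and 36 of 40 with Ccl7 had Ccl2, against 21.3% and 30.0% of those without. Cells of greater depth are more likely to show both, so these shares are descriptions. Ccl2 was also unevenly spread: the 29 and 28 fibroblasts with the most held 54.1% and 56.3% of its UMIs in the libraries labelled shMib2, with a median of 6 UMIs per cell in each and a highest cell of 232 and 370. Csf1 was more even, with 38.4% and 43.2% in as many cells. Barcodes that passed 2 gates held a further 23.5% and 12% of Ccl2 UMIs in the libraries labelled shMib2 and 33.5% in the library labelled shCtrl, and entered no level per class.

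**Figure D2:**
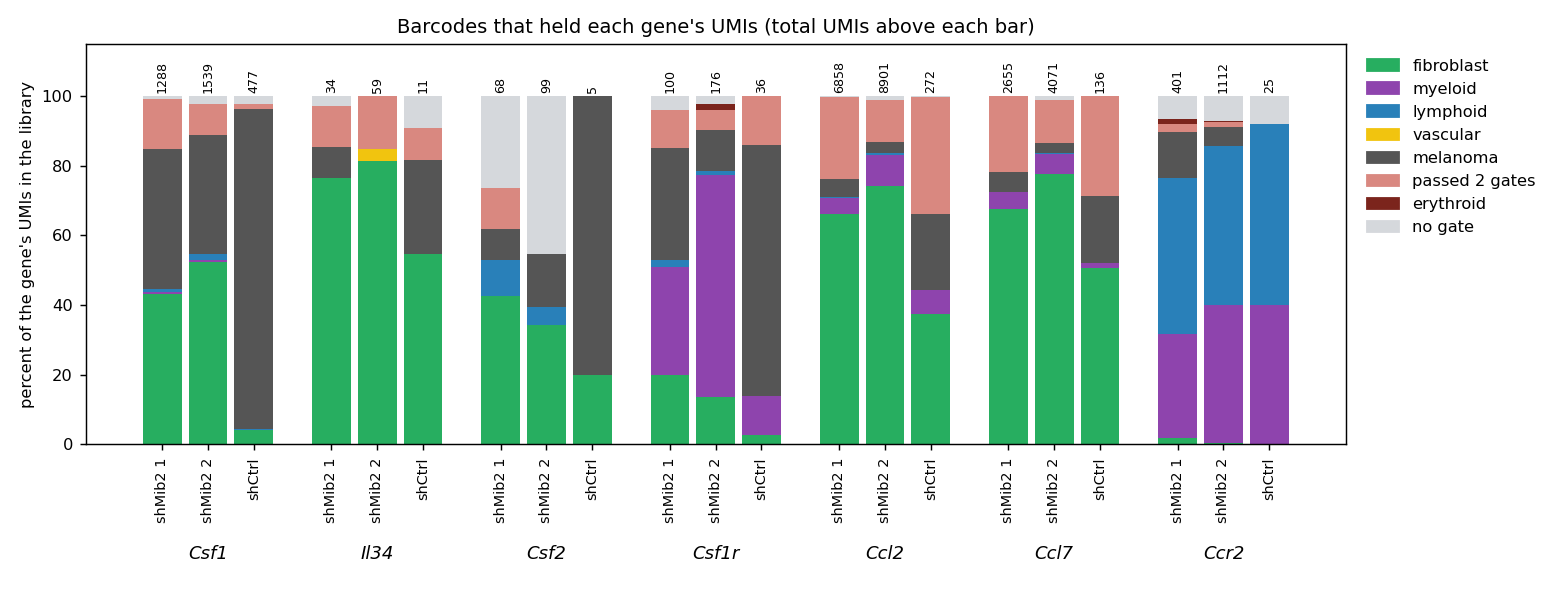
Percent of each gene's UMIs (vertical axis) held by each class of barcode in shMib2 replicate 1, shMib2 replicate 2 and shCtrl, with the total UMIs above each bar. Fibroblasts held 66.3% and 74.2% of Ccl2 UMIs in the libraries labelled shMib2 and 37.5% in the library labelled shCtrl, whereas melanoma cells held 91.8% of Csf1 UMIs in the library labelled shCtrl.

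Csf1r, the receptor of CSF1 and IL-34, had 80.4 CPM (31 UMIs) and 102.8 CPM (112 UMIs) in myeloid cells labelled shMib2, against 82.6 CPM (4 UMIs) in those labelled shCtrl. Fibroblasts had 7.95 and 6.08 CPM in the libraries labelled shMib2 and 6.39 CPM (1 UMI) in the library labelled shCtrl, and lymphoid and melanoma cells were lower. Csf1r was called higher in myeloid cells (adjusted p of 4.6e-16) and also in fibroblasts (0.0056) by edgeR, where the other gates include some with next to none. The fibroblast call was lost without shMib2 replicate 2 (adjusted p of 0.069). The 8 myeloid markers summed to 7.56 and 21.3 CPM in fibroblasts labelled shMib2 and to 12.8 CPM in those labelled shCtrl, and their part in the fibroblast Csf1r was not tested.

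Ccr2, the receptor of CCL2 and CCL7, was a transcript of myeloid and lymphoid cells. Myeloid cells had 311.3 CPM (120 UMIs) and 406.6 CPM (443 UMIs) in the libraries labelled shMib2, against 206.4 CPM (10 UMIs) in the library labelled shCtrl. Lymphoid cells had 104.8 CPM (180 UMIs) and 117.3 CPM (506 UMIs) in the libraries labelled shMib2, against 56.4 CPM (13 UMIs) in the library labelled shCtrl. It was called higher in myeloid cells (adjusted p of 2.0e-18) and in lymphoid cells (4.2e-14) by edgeR. A Ccr2 UMI was found in 38.0% and 48.8% of myeloid cells labelled shMib2 and in 31.6% of those labelled shCtrl, against 1.06%, 0.719% and 0% of fibroblasts in the same order. Fibroblasts had the greater depth, with medians of 8104, 12480 and 7974 UMIs per cell against 2315, 4032 and 2534 in myeloid cells. The part of RNA from other cells in the fibroblast share was not tested.

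Within myeloid cells the levels of the chemokines and of their receptor were highest in different subsets, though both subsets had all 3 transcripts. Monocyte-like cells led for Ccr2, with 538.1 and 686.6 CPM in the libraries labelled shMib2, and macrophage-like cells had 162.5 and 110.9 CPM. The intervals of these subsets were apart in both libraries. For Ccl2 the order was turned, with 3452 and 1574 CPM in macrophage-like cells and 939.4 and 840.8 CPM in monocyte-like cells, again with intervals apart. These intervals cover counting error only and no spread between cells. The 15 and 26 myeloid cells with the most Ccl2 held 80.1% and 76.1% of its myeloid UMIs in these libraries. Monocyte-like cells, the more numerous subset, held 103 and 409 Ccl2 UMIs in these libraries and macrophage-like cells 170 and 298. Ccl2 and Ccr2 were found together in 11 of 142 and 49 of 260 myeloid cells (7.75% and 18.8%), where independence would give 11.5% and 19.2%. Ccl7 differed more, with 2071 and 824.1 CPM in macrophage-like cells and 54.7 and 135.7 CPM in monocyte-like cells. Csf1r had 223.4 and 206.0 CPM in macrophage-like cells and 109.4 and 129.5 CPM in monocyte-like cells, with overlapping intervals in both libraries. In shMib2 replicate 2, plasmacytoid dendritic-like cells had 803.3 CPM of Ccl2, all in 2 of 19 cells. The library labelled shCtrl had 1 macrophage-like and 4 monocyte-like cells, too few to be compared. In the libraries labelled shMib2, 45 and 42 myeloid cells fell in no subset and had 380.4 and 318.8 CPM of Ccr2.

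Among lymphoid cells, Ccr2 was chiefly a transcript of NK-like cells. These had 285.6 CPM (120 UMIs) and 297.4 CPM (337 UMIs) in the libraries labelled shMib2, against 184.1 CPM (9 UMIs) in the library labelled shCtrl. T-like cells had 48.2 and 56.1 CPM in the libraries labelled shMib2, against 27.1 CPM (4 UMIs) in the library labelled shCtrl. No Ccr2 UMI was found in B-like cells of any library. A UMI was found in 32.8% and 46.0% of NK-like cells labelled shMib2, against 7.65% and 13.4% of T-like cells.

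**Figure D3:**
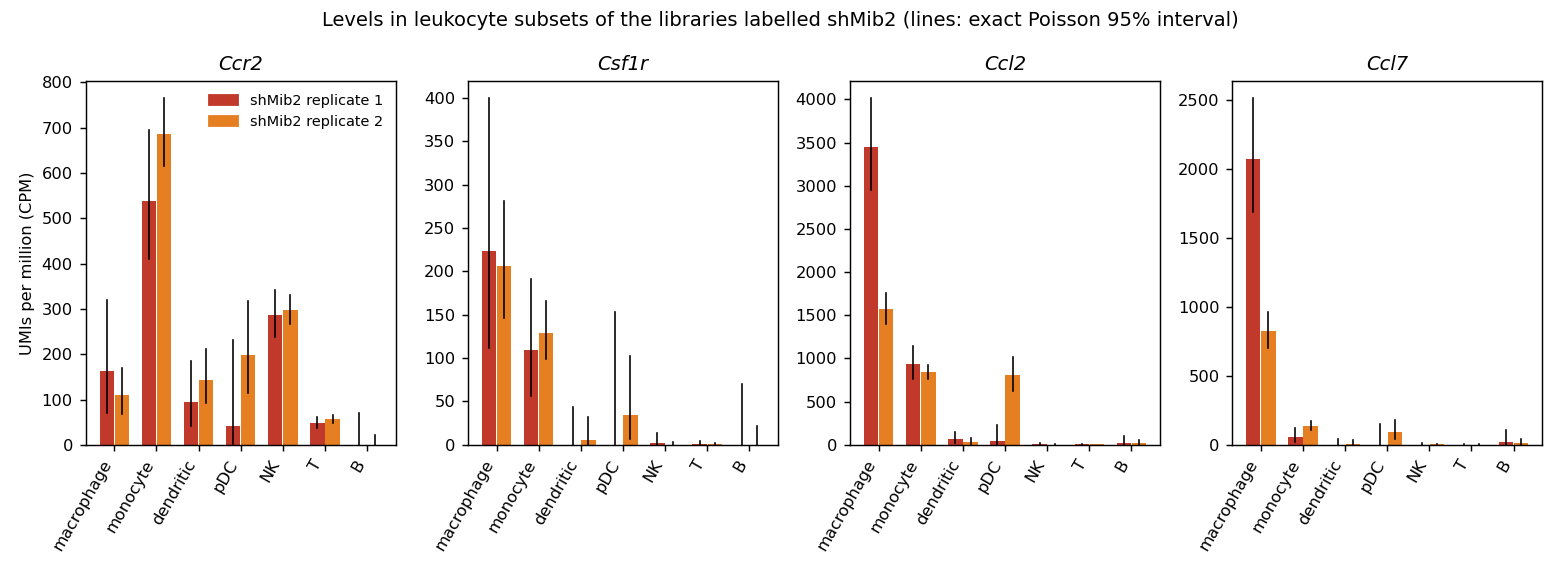
CPM of Ccr2, Csf1r, Ccl2 and Ccl7 in 4 myeloid and 3 lymphoid subsets of shMib2 replicates 1 and 2, with exact Poisson 95% intervals as lines and a vertical scale of its own for each gene. Of the subsets drawn, Ccr2 peaked in monocyte-like cells at 538.1 and 686.6 CPM and was next in NK-like cells. Ccl7 peaked in macrophage-like cells at 2071 and 824.1 CPM. Myeloid cells of no subset, with 380.4 and 318.8 CPM of Ccr2, are not drawn.

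The labels were then compared within each gate, to separate the level per cell class from the number of such cells. Over all barcodes kept, the CPM of Ccl2 was 32.3 and 39.4 times as high in the libraries labelled shMib2 as in the library labelled shCtrl, Ccl7 25 and 36 times, Ccr2 20.5 and 53.6 times, and Csf1 3.45 and 3.89 times. Within the fibroblast, myeloid and lymphoid gates the ratios were smaller for these 4 genes where both could be computed, and the libraries labelled shMib2 held more of the cells that express these genes. Whether the tumors held more of these cells or more were recovered cannot be told apart. These tests have 1 residual degree of freedom, and they take the spread between the 2 libraries labelled shMib2 to hold for the single library labelled shCtrl as well.

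Fibroblasts labelled shMib2 had more Ccl2 and Ccl7, the only 2 of 6 genes tested that were called, where 3.53% of 10848 genes were called. Ccl2 was 2.78 and 2.57 times as high as in the fibroblasts labelled shCtrl (95% interval of counting 2.28 to 3.41 and 2.11 to 3.16), with a log2 fold change of 1.45 ± 0.12 (SE) and an adjusted p of 1.2e-06 (edgeR). Ccl7 was 1.62 and 1.82 times as high (1.27 to 2.09 and 1.43 to 2.34), with a log2 fold change of 0.82 ± 0.16 (SE) and an adjusted p of 0.0052. The Ccl7 call was lost with the stricter gate (adjusted p of 0.35) and in DESeq2 (0.23), whereas the Ccl2 call was kept in both. A single cell of the library labelled shCtrl held 67 of its 102 Ccl2 UMIs. With the highest cell of each library left out, an alternative chosen after seeing the data, Ccl2 stood at 1725 and 1595 CPM in the fibroblasts labelled shMib2 and at 250.9 CPM in those labelled shCtrl. The level labelled shCtrl thus rests largely on 1 cell. Leaving out 1 cell takes more from 16 cells than from 284 or 278, so this alternative cannot test the difference.

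Ccl2 was also found in more of these cells. A UMI was present in 76.8% and 70.1% of fibroblasts labelled shMib2, against 37.5% of those labelled shCtrl (6 of 16, Wilson 95% interval 18.5 to 61.4%). In melanoma cells the share was 4.22%, 5.48% and 0.167% in the order shMib2 replicate 1, shMib2 replicate 2 and shCtrl. The part of RNA from other cells in this share was not tested. Melanoma cells had the greater depth, with medians of 25005, 41949 and 26741.5 UMIs per cell against 8104, 12480 and 7974 in fibroblasts. With cells thinned to 1000 UMIs, Ccl2 stood at 1657 and 1443 CPM in fibroblasts labelled shMib2 and at 333.3 CPM in those labelled shCtrl. The lower sum of fibroblast markers and the higher sum of mural markers in the fibroblasts labelled shCtrl moved with these differences, and their part in the result was not tested.

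The other members did not pass in fibroblasts. Csf1 was 1.74 and 1.60 times as high in those labelled shMib2 (1.11 to 2.87 and 1.03 to 2.64), with a log2 fold change of 0.77 ± 0.24 (SE) and an adjusted p of 0.17 (edgeR). Il34 went the other way, at 0.270 and 0.317 times the level of shCtrl (0.109 to 0.802 and 0.136 to 0.907), with an adjusted p of 0.26 that rests on 6 UMIs in the library labelled shCtrl. Csf2 and Csf1r had 1 UMI each in the 16 fibroblasts labelled shCtrl, so a difference was not detectable at this depth.

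Myeloid cells labelled shMib2 also had more Ccl2 and Ccl7, called in 2 of 4 genes tested where 2.63% of 5479 genes were called. Ccl2 was 2.06 and 1.87 times as high as in those labelled shCtrl, with a log2 fold change of 1.10 ± 0.31 (SE) and an adjusted p of 0.024 (edgeR). Ccl7 was 8.04 and 5.20 times as high, with a log2 fold change of 2.80 ± 0.68 (SE) and an adjusted p of 0.010. All 19 Ccl2 UMIs and both Ccl7 UMIs of the 19 myeloid cells labelled shCtrl stood in 1 cell, while 43 of 142 and 102 of 260 cells labelled shMib2 had Ccl2. The Ccl2 call was lost with the stricter cell filter (adjusted p of 0.082), and neither call was kept with the stricter gate, with predicted doublets removed or in DESeq2. The larger share of plasmacytoid dendritic-like cells and the single macrophage-like cell in the library labelled shCtrl moved with these differences, and their part was not tested. Fibroblast markers summed to 46.7 and 26.6 CPM in myeloid cells labelled shMib2, where 5 and 6 of the 7 markers were detected. They summed to 0 in those labelled shCtrl. The part of fibroblast RNA in the myeloid values was not tested.

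The receptors did not pass in any gate. In myeloid cells Ccr2 was 1.51 and 1.97 times as high in the libraries labelled shMib2 as in the library labelled shCtrl (0.792 to 3.22 and 1.06 to 4.14), with an adjusted p of 0.28 (edgeR). Csf1r was 0.974 and 1.25 times the level of shCtrl (0.344 to 3.80 and 0.473 to 4.65), an interval that leaves room for a change of several fold in either direction. In lymphoid cells Ccr2 was 1.86 and 2.08 times as high (1.06 to 3.56 and 1.21 to 3.93), with an adjusted p of 0.26, where 0 of 3 genes tested were called against 1.37% of all 9408. The separate tests of T-like cells (0 of 2 genes called, background 1.36%) and NK-like cells (0 of 1, background 0.0701%) did not call Ccr2 either, with adjusted p of 0.66 and 0.71 (edgeR).

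**Figure D4:**
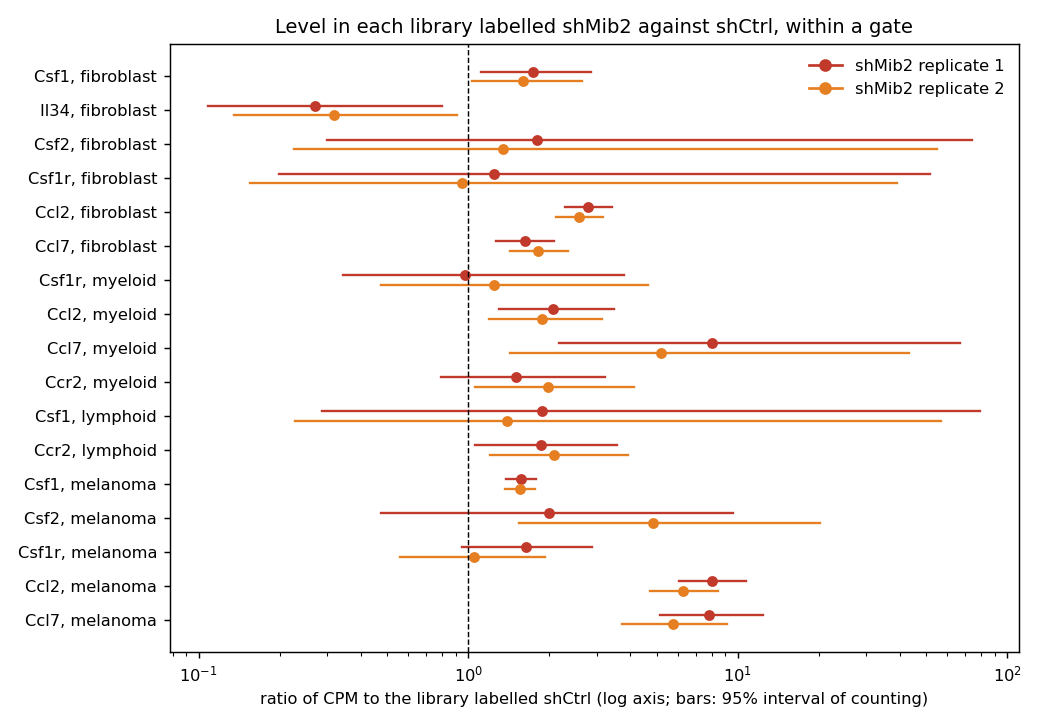
CPM of each library labelled shMib2 over that of the library labelled shCtrl (horizontal log axis, 95% intervals of counting) for each gene and gate with at least 10 UMIs in each pair of libraries and a UMI in the library labelled shCtrl. Ccl2 in fibroblasts lay at 2.78 and 2.57, Il34 in fibroblasts below 1 in both libraries, and Csf1r in myeloid cells on either side of 1.

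In melanoma cells 0 of 6 genes tested were called, where 0.0498% of 16058 genes were (8 genes, and 2568 at an unadjusted p under 0.05, by edgeR; DESeq2 called 393 genes, 3 of the 6 among them). Csf1 was 1.57 and 1.55 times as high in cells labelled shMib2 (1.38 to 1.79 and 1.37 to 1.77), with a log2 fold change of 0.60 ± 0.096 (SE) and an adjusted p of 0.21 (edgeR). Ccl2 had 1.97 CPM (354 UMIs) and 1.54 CPM (285 UMIs) in melanoma cells labelled shMib2, against 0.245 CPM (59 UMIs) in those labelled shCtrl, with an adjusted p of 0.095. Ccl7 was 7.85 and 5.74 times as high, with an adjusted p of 0.15. Ccr2 had 53 and 62 UMIs in melanoma cells labelled shMib2 and 0 in those labelled shCtrl, which is at least 23.6- and 26.8-fold higher if the library labelled shCtrl is set to 3 UMIs, with an adjusted p of 0.11.

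Markers of other cells in the melanoma gate are given beside these values. Fibroblast markers summed to 102.4 and 92.8 CPM in melanoma cells labelled shMib2 and to 78.9 CPM in those labelled shCtrl. T cell markers summed to 4.46 and 7.04 CPM against 0.682 CPM, NK cell markers to 2.1 and 2.0 CPM against 0.528 CPM, and myeloid markers to 5.29 and 6.42 CPM against 2.82 CPM, in the same order of labels. Not all lists were higher with the label shMib2. Endothelial markers summed to 57.1 and 53.1 CPM against 62.5 CPM. B cell markers stood at 3.98 and 4.64 CPM against 4.61 CPM, and mural markers at 2.03 and 2.05 CPM against 1.87 CPM. The level of Ccl2 in melanoma cells was 0.109% and 0.0919% of that in fibroblasts of the same library for the label shMib2 and 0.0377% for shCtrl. The part of RNA from other cells in the melanoma values was not tested.

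Other genes of these axes, 27 in number, were read beside the members. In fibroblasts 2 of 13 tested were called, where 3.53% of 10848 genes were. Both were higher in those labelled shMib2: Cxcl12, a chemokine that holds CXCR4-bearing leukocytes in tissue, and Ccl8, a further monocyte chemokine. Cxcl12 had 303.5 and 279.8 CPM in fibroblasts labelled shMib2, against 57.5 CPM in those labelled shCtrl (log2 fold change 2.37 ± 0.28 SE, adjusted p of 5.6e-05, edgeR). Ccl8 had 211.2 and 194.0 CPM in fibroblasts labelled shMib2, against 31.9 CPM in those labelled shCtrl (2.69 ± 0.36 SE, adjusted p of 0.00017). Both calls were kept under each alternative run that gave a test. The 16 fibroblasts labelled shCtrl held 156584 UMIs of all genes, so both levels there rest on few UMIs. The part of their lower fibroblast and higher mural markers in these 2 calls was not tested. The median log2 fold change of the 13 genes was 2.37, and that of all genes tested was 0.18. Genes with next to no UMI in the fibroblasts labelled shCtrl can pass the filter on low counts through the libraries labelled shMib2. With no filter on low counts, the median of all genes was 0.89. The 2 medians are therefore not alike in depth, and their gap is not read as a result about the list.

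In myeloid cells 3 of 16 genes tested were called, where 2.63% of 5479 genes were. All 3 were higher in cells labelled shMib2: Ccl8, Ccl9 and Ccl6, the last 2 being ligands of CCR1. Ccl6 had 518.8 and 785.8 CPM in myeloid cells labelled shMib2, against 185.8 CPM in those labelled shCtrl (log2 fold change 1.96 ± 0.39 SE, adjusted p of 7.2e-05, edgeR). Ccl9 had 363.1 and 479.2 CPM in the libraries labelled shMib2, against 144.5 CPM in the library labelled shCtrl (adjusted p of 0.0099). Ccl8 had 181.6 and 188.2 CPM in the libraries labelled shMib2, against 20.6 CPM in the library labelled shCtrl, which was 1 UMI (adjusted p of 0.017). It passed the filter on low counts through the libraries labelled shMib2. None of the 3 was called in DESeq2 or with the stricter gate. The 19 myeloid cells labelled shCtrl held 48443 UMIs of all genes, so all 3 levels there rest on few UMIs. The part of their larger share of plasmacytoid dendritic-like cells in these calls was not tested. In melanoma, lymphoid, T-like and NK-like cells none of the 19, 9, 8 and 5 genes tested was called. Of all genes tested, 0.0498%, 1.37%, 1.36% and 0.0701% were called in the same order.

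Across gates, 18 of 25 of these genes were called higher in myeloid cells, 9 in fibroblasts, 7 in lymphoid cells and 0 in melanoma cells, where 18.8%, 25.8%, 25.2% and 32.2% of all 13132 genes were called higher in the same order of gates. The lymphoid count was near its background. Those called higher in myeloid cells included Il1b, Flt3, Ccl6 and Ccr1, of which Flt3 is also a marker of the dendritic subset. Those called higher in fibroblasts included Ackr1, which binds chemokines without signalling, Cxcl12, Ccl11 and Ccl8. These genes were picked by the fitted fold change against the mean of the other gates. The few vascular cells entered that mean, so the order of the genes is not read as a ranking.

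Genes with the most similar profile over the 13 sums of library and gate were named by the correlation of log2(CPM + 1) across those sums, which share libraries and cell classes. For Csf1 they were Mfap5, Igfbp6 and Il1rl2 (Pearson's r of 0.956 to 0.959). For Csf2 they were Lgals1, Il33 and Gpm6b (0.941 to 0.955). Ccl2 and Ccl7 shared Tppp3 as the most similar gene (0.993 and 0.983), followed by Ifi204 and Lpl for Ccl2 and by Vcan and Fos for Ccl7. For Csf1r they were Npc2, Rnh1 and Cxcl2 (0.952 to 0.978), and for Ccr2 Coro2a, Ccl3 and Pik3ap1 (0.993 to 0.996).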

How the data were processed

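Raw UMI counts made by the authors with Cell Ranger 4.0.0 and the mm10 build, per the labels, were deposited per gene and barcode without normalization. No cell annotation was used. A barcode was kept if 200 genes or more were detected and mitochondrial UMIs did not exceed 20%. A barcode entered a class with 2 markers detected and at least 0.1% of its UMIs on markers (0.4% for melanoma), and was left out where it also reached the melanoma level or where the second class scored over 0.7 of the first; barcodes with over 10% hemoglobin UMIs were set aside as erythroid. No doublet caller was used beyond the gates, and Scrublet scores were an alternative. CPM are UMI counts scaled by the summed UMIs of a class, with exact Poisson 95% intervals, and shares have Wilson intervals. Both cover counting error only. Totals were 190904274, 203298455 and 243926188 UMIs in 9428, 8388 and 9558 barcodes, of which 8568, 7283 and 8817 were kept (shMib2 replicate 1, shMib2 replicate 2, shCtrl).

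UMI counts were summed per library and class with at least 10 cells, normalized by TMM, filtered by filterByExpr and tested with edgeR 4.0.16 at an adjusted p (Benjamini-Hochberg) under 0.05. The SE is the log2 fold change over the root of the F statistic. Labels were compared as 2 libraries against 1, and the 2 pooled libraries labelled shMib2 are the only replicates. edgeR draws the spread of each gene towards that of all genes. The p-values therefore rest on this shared spread as well as on that of the gene itself. Gates were compared as each class against the mean of the others with library as a covariate. The fits were tested on simulated data with 200 changed genes. Alternatives were size factors, no filter on low counts, other cell filters, a stricter gate, barcodes of 2 gates kept, predicted doublets removed, DESeq2 1.42.0, cells thinned to 1000 UMIs, each library left out and, chosen after seeing the data, vascular cells left out of the comparison of gates and the cell with the most UMIs left out of a level. The members were given. From the 27 other genes, those that passed a test between labels and up to 4 per class were named, and 3 similar genes for each member with at least 50 UMIs, among genes with at least 200 UMIs outside melanoma cells. Members and lists were chosen with earlier results of these data known. Python 3.11.15 with scanpy 1.11.5 and R 4.3.3 were used. The leading other genes of lymphoid cells and the genes most similar to Il34 are not reported here.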

Additional observations from a re-analysis of the deposited data

Results flagged for a closer look

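Barcodes that passed no gate (311, 773 and 215 in shMib2 replicate 1, shMib2 replicate 2 and shCtrl) entered none of the comparisons, and 3 genes were higher there in both libraries labelled shMib2 than the counting interval of the library labelled shCtrl allows. Csf2 had 12.7 CPM (18 UMIs in 3 barcodes) and 12.5 CPM (45 UMIs in 8 barcodes) in the libraries labelled shMib2, and 0 UMIs in the library labelled shCtrl. Of the transcripts of type 2 lymphocytes, Gata3 was found in 2 of the 3 barcodes of replicate 1 and 6 of the 8 of replicate 2, Il1rl1 in 2 and 6, Il5 in 0 and 6, and Il13 in none of either. Ptprc, the pan-leukocyte marker, was found in 1 and 7. Il1rl1 was not particular to these barcodes. Of the fibroblast-gated barcodes with Csf2 in the same libraries, 4 of 7 and 5 of 9 had Il1rl1. Gata3 was found in 1 and 0 of them, and Ptprc in 1 and 2. Ccl2 had 15.5 and 25.1 CPM in the libraries labelled shMib2 and 0.629 CPM (1 UMI) in the library labelled shCtrl. Ccr2 had 18.3 and 21.7 CPM in the libraries labelled shMib2 and 1.26 CPM (2 UMIs) in the library labelled shCtrl. The makeup of these barcodes was not tested.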

How the results depend on the processing

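In melanoma cells the number of members called, 0 (8 of all 16058 genes called), became 4 with barcodes of 2 gates kept (248 of 16260). It became 1 with predicted doublets removed (88 of 15771) and 3 in DESeq2 (393 of 16058). In fibroblasts 2 (383 of 10848) became 1 with the stricter gate (62 of 10796) and in DESeq2 (109 of 10848). In myeloid cells 2 (144 of 5479) became 1 with the stricter cell filter (130 of 5340). The myeloid number was 0 with the stricter gate (23 of 4499), with predicted doublets removed (65 of 5417) and in DESeq2 (10 of 5479). The counts for lymphoid, T-like and NK-like cells stayed at 0. Across gates, the 11 calls of a member as higher stayed within 1.5 times of that number throughout, also without vascular cells, which was chosen after seeing the data. Some directions turned, all of them uncalled: Csf1r in fibroblasts had a log2 fold change of -0.065 with the stricter gate and -0.052 without shMib2 replicate 1 (0.26 without shMib2 replicate 2), Csf1r in myeloid cells -0.040 without shMib2 replicate 2 (0.44 without shMib2 replicate 1) and Csf1 in lymphoid cells -0.45 with no cell filter. The causes were not tested.

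Counts over all genes moved more. Melanoma cells had 8 calls, against 393 in DESeq2, 248 with barcodes of 2 gates kept, 88 with predicted doublets removed and 0 with no filter on low counts. Fibroblasts had 383, against 62 with the stricter gate, 109 in DESeq2 and 242 with predicted doublets removed. Lymphoid cells had 129, against 3 with the stricter cell filter and 15 in DESeq2. Myeloid cells had 144, against 23 with the stricter gate, 65 with predicted doublets removed and 10 in DESeq2. T-like cells had 117 (50 higher, 67 lower), against 27 (16 higher, 11 lower) with size factors, 27 with no cell filter, 66 with the stricter cell filter, 18 with barcodes of 2 gates kept, 38 with predicted doublets removed and 4 in DESeq2. NK-like cells had 4 (3 higher), against 5 (3 higher) with size factors, 14 with no filter on low counts, 16 with the stricter gate and 0 with barcodes of 2 gates kept or in DESeq2. Between gates, size factors moved the median log2 fold change of all genes to 0.15 in melanoma cells, against 0.33 with TMM, and to 0.38 in fibroblasts, against 0.26. With 1 library on each side no test is possible. No paired analysis was possible because the labels share 1 replicate number at most. The 16 fibroblasts and 19 myeloid cells of the library labelled shCtrl limit every comparison.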
